A study of Rattus norvegicus with 60 samples.

Results

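Corn oil, the vehicle of the cyproterone acetate arm of this rat liver series, was given for 2 durations, and the arrays of its 6 d group were compared with those of its 24 h group. The comparison used 16 of the 60 arrays of the series. They were 5 arrays at 24 h and 3 at 6 d from hepatocytes (HC), and the same numbers from the fraction labelled mesenchymal cells (MC). All 16 came from Wistar rats labelled female and aged 8 weeks, dosed with corn oil at 10 ml/kg and with no test compound. Cyproterone acetate itself was given by gavage once or on 6 consecutive days. The labels give only the duration for the oil, and not its daily schedule or the time from the last dose to cell isolation. Another 24 h group under corn oil has the code CO_Co in the labels, with 4 arrays per fraction. It was kept out of the comparison, and the labels do not explain the code. Its values are given beside some results. RNA of each isolate (250 ng) was hybridised to an Affymetrix rat expression array, and values are log2 signals. The labels do not say whether each replicate is an animal of its own, so p-values measure the spread between arrays. In the fit of each fraction, that spread came from all arrays of the fraction, those outside the comparison included. The day of isolation, array batch and age at isolation cannot be told apart from the duration of dosing.

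Corn oil is mostly triglyceride rich in linoleic acid, so a gavage is also a fat meal. Fatty acids reaching hepatocytes are ligands of PPAR-alpha, a nuclear receptor that switches on the genes of fatty acid oxidation, and polyunsaturated fatty acids hold down SREBP-1c, which drives fatty acid synthesis. In the remaining liver cells, macrophages take up lipid and respond to gut-derived products, while endothelial and stellate cells line the sinusoids and store retinoids.

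The cell labels were checked against marker genes. The mean over 15 hepatocyte markers lay between 11.77 and 11.92 on the HC arrays at 24 h and between 11.78 and 11.89 at 6 d. In the MC fraction the same mean ran from 6.47 to 10.30 at 24 h and from 8.45 to 9.54 at 6 d, so hepatocyte RNA was present on every MC array and varied most at 24 h. Markers of Kupffer cells and macrophages averaged 10.23 to 11.17 over the 8 MC arrays, those of sinusoidal endothelium 8.43 to 9.83 and those of stellate cells 4.02 to 5.47. These means come from different probe sets and give no order of the cell types. In bulk RNA, fewer cells of a type and less RNA per cell cannot be told apart. Across genes, which are not independent replicates, arrays of a group correlated at 0.985 or more within the HC groups and at 0.981 or more within MC at 6 d. Among the 5 MC arrays at 24 h the lowest correlation was 0.920, between replicates 1 and 4, which also held the lowest and the highest hepatocyte marker mean. Eif2s3y, a Y-linked gene, was at 1.43 or less and Xist at 8.55 or more on the HC corn oil arrays, against at least 6.58 and at most 1.43 on the HC arrays of male rats given water for 14 d. The probe set of a further Y-linked gene, Uty, went against this pair, with 7.39 to 8.13 on the corn oil arrays and 6.19 to 6.74 on those of the male rats. Outside the comparison, HC replicate 1 at 24 h and HC replicate 1 of CO_Co were the most alike of all pairs of HC corn oil arrays, with an SD of gene-wise differences of 0.24 against 0.29 for the next pair, and the labels state no relation between them.

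In hepatocytes, no gene passed the test between 6 d and 24 h of corn oil. With limma over 14217 genes and Benjamini-Hochberg adjustment, 0 genes (0.0%) reached an adjusted p under 0.05. At an unadjusted p under 0.05 there were 696 genes (4.9%), of which 400 (2.81%) had the higher mean at 6 d and 296 (2.08%) the lower. The count of 0 was 10 with array weights, 2 with the replicate number as a block and 3 without 24 h replicate 3. The arrays of the 2 groups did not overlap for 690 genes (4.85%), with the 6 d arrays higher for 395 (2.78%) and lower for 295 (2.07%). The median size of the estimates was 0.11, the median estimate was 0.01 and the middle 95% lay between -0.34 and 0.43. For 13661 genes (96.1%) the 95% interval of the difference stayed within 2-fold in either direction, and so did those of 95.6% of genes with a mean of at least 4 and 96.8% with a mean of at least 6, so the narrow intervals were not limited to dim genes.

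**Figure D1:**
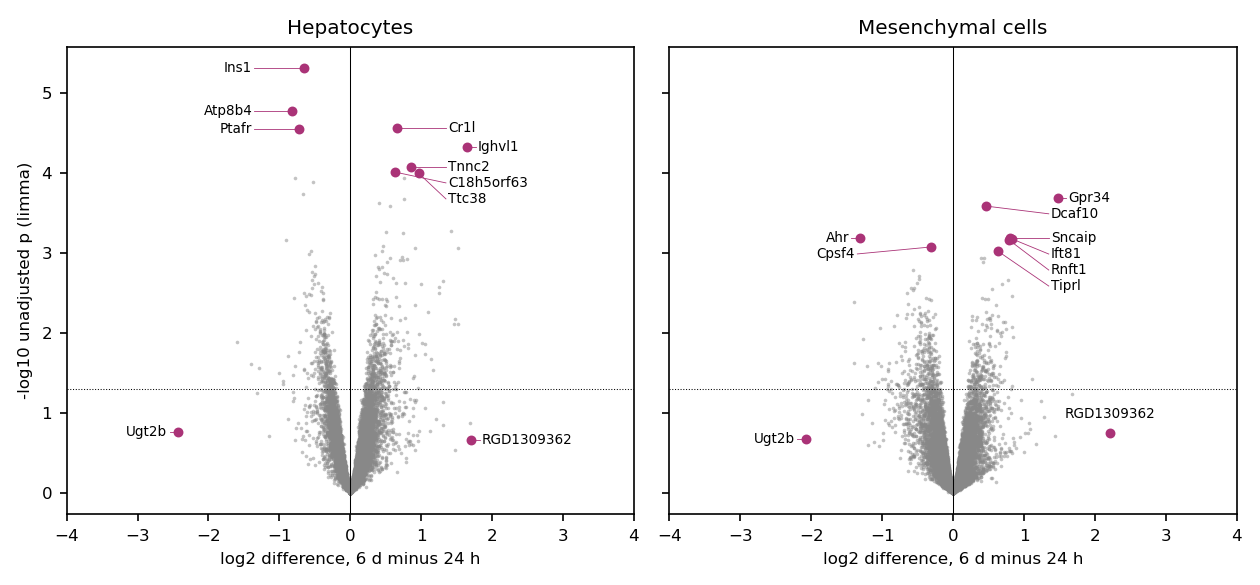
Each point is 1 of 14217 genes, with its log2 difference of 6 d minus 24 h of corn oil on the x axis and -log10 of the unadjusted limma p on the y axis, for hepatocytes (left) and mesenchymal cells (right). The dotted line marks an unadjusted p of 0.05, the coloured points are the 8 genes with the smallest p in each fraction plus Ugt2b and RGD1309362, whose large differences came with large p-values, and no gene in either panel passed after adjustment.

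The hepatocyte gene closest to the threshold was Ins1, which encodes a preproinsulin and is not a hepatocyte product. It read 3.65, 3.54, 3.38, 3.81 and 3.83 on the 24 h arrays and 2.86, 3.10 and 2.99 at 6 d. All 6 d arrays lay below all 24 h arrays, by 0.66 on average (95% interval -0.89 to -0.42, limma adjusted p 0.0699). The Ins1 values lay near the median of all probe sets on an HC array, which was 3.34 on 24 h replicate 1 and 3.31 on 6 d replicate 1. Whether the transcript was detected at all was not tested. Cr1l, a regulator of complement at the cell surface, read 6.76, 6.56, 6.84, 6.68 and 6.78 at 24 h and 7.38, 7.33 and 7.45 at 6 d. The groups were apart here too, with a difference of 0.66 (interval 0.40 to 0.93) and an adjusted p of 0.102 by limma, and the CO_Co arrays, from 6.70 to 7.10, lay below the 6 d arrays too. Ighvl1, an immunoglobulin heavy chain segment and so a B cell transcript, had the largest difference among the 8 genes of smallest p, with 2.61, 2.48, 2.79, 3.59 and 4.08 at 24 h against 4.14, 5.19 and 4.95 at 6 d. Its difference was 1.65 (interval 0.96 to 2.35, limma adjusted p 0.136), and the highest 24 h array came close to the lowest 6 d array. The other 5 were Atp8b4, a phospholipid flippase subunit (-0.83), Ptafr, the receptor for platelet-activating factor (-0.73), Tnnc2, a troponin of fast muscle (0.85), C18h5orf63 (0.63) and Ttc38 (0.97). Their arrays did not overlap between the groups and their limma adjusted p-values lay between 0.102 and 0.165.

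Genes of fatty acid oxidation showed no shared shift at 6 d. Of 20 measured PPAR-alpha targets, none passed after adjustment, 8 estimates lay above 0, and the median was -0.08 beside 0.01 for all genes. The 1 member below an unadjusted p of 0.05 was Cyp4a1, a fatty acid omega-hydroxylase and a classical PPAR-alpha target in the rat. It read 10.51, 10.42, 10.66, 10.72 and 10.74 at 24 h and 9.83, 10.07 and 9.95 at 6 d. Every 6 d array was below every 24 h array, by 0.66 on average (interval -0.97 to -0.35, limma adjusted p 0.220), and the CO_Co arrays at 24 h spanned both ranges, from 9.78 to 10.50.

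The other PPAR-alpha targets overlapped. Cpt1a, which admits long-chain fatty acids to mitochondria, had 7.92, 8.99, 9.34, 9.51 and 9.45 at 24 h and 9.07, 8.58 and 8.89 at 6 d. Pdk4, which restrains glucose oxidation, had 9.83, 8.96, 10.06, 8.98 and 8.32 against 8.60, 9.11 and 8.89. For both genes the 6 d values fell inside the 24 h range, and their intervals were -0.91 to 0.53 and -1.45 to 0.73, so a 2-fold difference in one direction was not outside the interval of Pdk4. The estimates of Angptl4, a lipase inhibitor, and Acadm, a medium-chain acyl-CoA dehydrogenase, were -0.32 (-1.15 to 0.50) and 0.07 (-0.18 to 0.32). The hormone Fgf21 (0.73) and the thioesterase Acot1 (0.77) had the largest positive estimates together, and in both the highest array was 6 d replicate 1. Acot1 read 3.94 there and no more than 1.82 on the other HC arrays of the comparison.

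The 2 corn oil groups of the same labelled duration gave called genes where the 2 durations gave none. CO_Co against the 24 h group gave 10 called genes in hepatocytes (0.0703%), 1 higher and 9 lower in CO_Co, with the same limma fit, and 548 (3.85%) at an unadjusted p under 0.05. Both contrasts use the same 24 h arrays, so the values are set side by side and not correlated. Vnn1, a pantetheinase under PPAR-alpha control, had an estimate of -2.84 for CO_Co and 0.60 (interval -0.28 to 1.48) for 6 d. Eci1, an isomerase of unsaturated fatty acid oxidation, had -1.52 and -0.28, and Decr1, the reductase of the same pathway, had -0.98 and -0.07. The remaining called genes were Acot2, Hadhb, Crat, Ech1, Ephx2 and Aig1, all lower in CO_Co, and Stac3, which was higher. Their estimates for 6 d lay between -0.40 and 0.18, and each interval included 0. The count of 10 was 0 when only those 9 arrays were fitted and 3 with the replicate block. It became 22 without CO_Co replicate 1, the array that resembled 24 h replicate 1, 16 without 24 h replicate 1 and 1 without CO_Co replicate 3 or 4. In MC the same contrast gave 0 calls (0.0%), with 384 genes (2.7%) at an unadjusted p under 0.05.

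**Figure D2:**
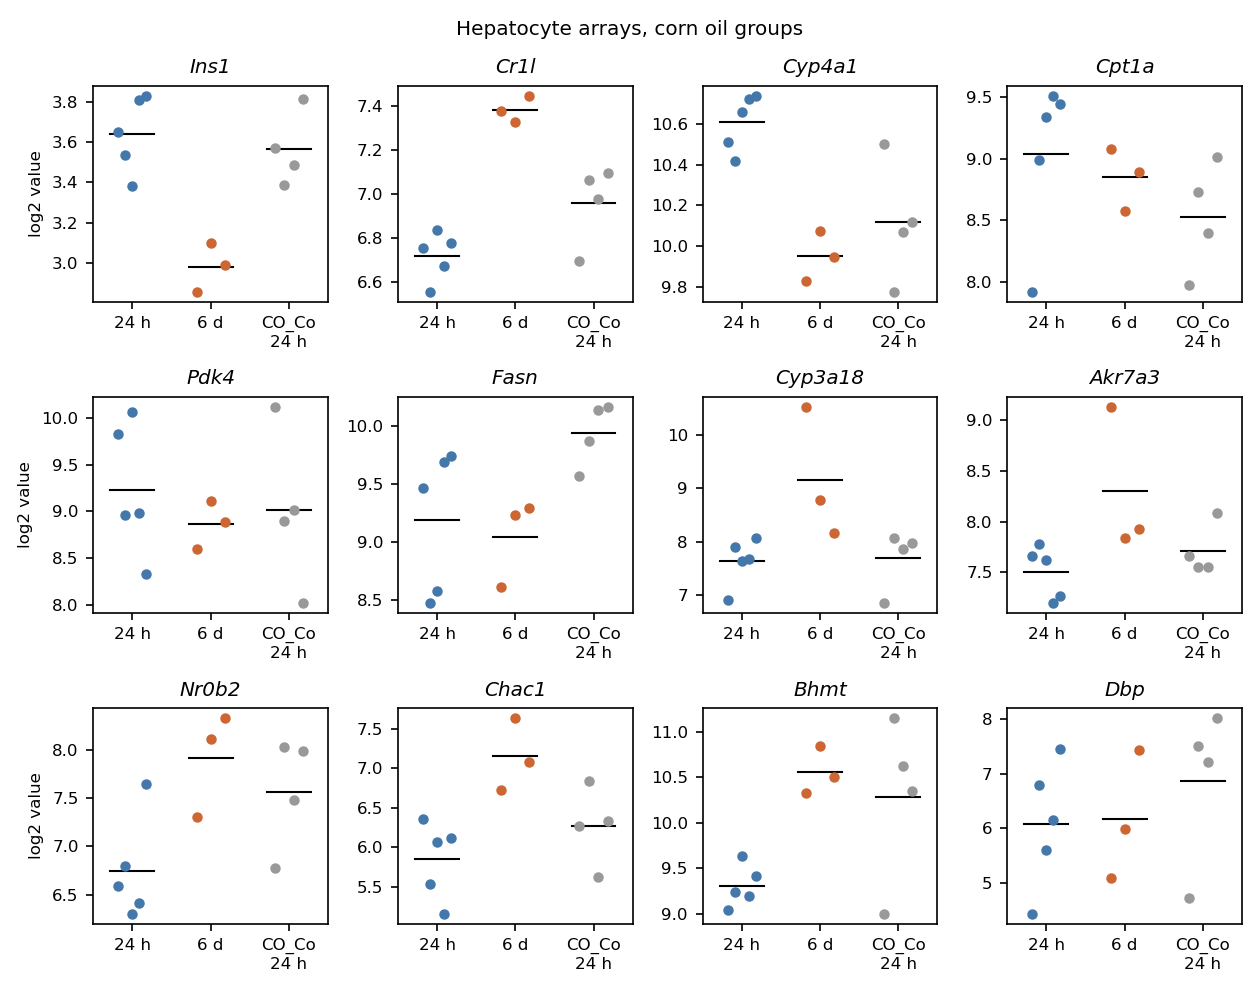
Log2 values of 12 genes on the hepatocyte arrays of the 24 h (blue), 6 d (orange) and CO_Co (grey) corn oil groups, with 1 point per array, a line at each group mean and a separate y axis per gene. Ins1, Cr1l and Cyp4a1 separate the 24 h from the 6 d arrays, whereas Cpt1a, Pdk4, Fasn and Dbp overlap, and 1 array carries the top of Cyp3a18 and Akr7a3 at 6 d.

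Lipid synthesis did not separate the durations. Among 16 genes of fatty acid synthesis, 8 estimates lay above 0, with a median near 0, and 13 intervals stayed within 2-fold. Fasn, the fatty acid synthase, read 9.46, 8.47, 8.57, 9.68 and 9.74 at 24 h and 8.61, 9.23 and 9.29 at 6 d, and all 6 d values were within the 24 h range (interval -0.74 to 0.45). The estimate of Srebf1, which encodes SREBP-1, was 0.08 (-0.45 to 0.60), and that of Scd, the stearoyl-CoA desaturase, -0.29 (-1.42 to 0.84). Fads2, the delta-6 desaturase that acts on linoleic acid, was the 1 member below an unadjusted p of 0.05. It had 8.77, 8.47, 8.55, 8.49 and 8.60 at 24 h and 8.90, 9.30 and 9.03 at 6 d, all above the 24 h arrays, with a difference of 0.50 (interval 0.05 to 0.94, limma adjusted p 0.977). In the 18 genes of cholesterol synthesis and uptake the median was -0.11, and none was below an unadjusted p of 0.05. Cidea, a lipid droplet protein that accumulates in fatty liver, had 6.23, 6.69, 7.12, 6.34 and 6.36 at 24 h and 7.12, 7.70 and 7.48 at 6 d. The arrays did not overlap before rounding, and the estimate was 0.89 with an interval of -0.21 to 1.99 that includes 0.

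Bile acid genes held 3 members with an unadjusted p under 0.05 out of 20, all with the higher mean at 6 d, beside 2.81% of all genes in that direction, and a median of 0.03. Nr0b2, the repressor SHP that bile acids induce through FXR, read 6.59, 6.79, 6.30, 6.41 and 7.65 at 24 h and 7.31, 8.11 and 8.33 at 6 d. Only 24 h replicate 5 reached into the 6 d range, and the difference was 1.17 (0.13 to 2.20). Abcb11, the bile salt export pump and another FXR target, had 9.46, 9.11, 9.73, 9.30 and 9.81 against 9.70, 10.44 and 10.42, a difference of 0.71 (0.21 to 1.20). The limma adjusted p was 0.977 for Nr0b2 and 0.955 for Abcb11. The third member, the transporter Slco1a4, was estimated at 0.64. Only its 6 d replicate 1, at 11.52, stood above the 24 h range, which reached 11.13. Cyp7a1, which catalyses the first and limiting step from cholesterol to bile acids, had 9.28, 8.90, 10.22, 10.00 and 10.44 at 24 h and 8.89, 9.77 and 9.73 at 6 d, with overlap and an estimate of -0.31 (-1.59 to 0.97). The CO_Co arrays overlapped the 6 d ranges of Nr0b2, from 6.77 to 8.03, and of Abcb11, from 9.49 to 10.44.

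Drug-metabolising genes had the largest median of the 30 pathway lists in hepatocytes, and it rested on 1 array. Of 17 targets of the xenobiotic receptors CAR and PXR, 14 estimates lay above 0, the median was 0.33, and 3 members were below an unadjusted p of 0.05. The male-predominant enzyme Cyp3a18 read 6.90, 7.91, 7.63, 7.67 and 8.07 at 24 h and 10.54, 8.77 and 8.15 at 6 d. All 6 d arrays were above the 24 h arrays, replicate 1 by the most, and the difference was 1.52 (interval 0.69 to 2.35, limma adjusted p 0.555). Ephx1, the microsomal epoxide hydrolase, had 9.22, 9.25, 9.67, 9.25 and 8.76 against 11.06, 9.63 and 9.44, and only replicate 1 stood above the 24 h range. Akr7a3, an aldo-keto reductase of the Nrf2 list, had 7.66, 7.78, 7.63, 7.20 and 7.26 against 9.13, 7.84 and 7.93. Without 6 d replicate 1 the median of the CAR and PXR list was -0.06 with 8 of 17 above 0. The 16 Nrf2 targets went from a median of 0.22 to 0.01.

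The sign of the cell cycle medians rested on the same array. The median of 22 mitosis genes was 0.17 with all arrays and -0.24 without HC replicate 1 at 6 d, when 2 estimates were above 0 in place of 17. For 23 genes of DNA replication the median of 0.10 became -0.21. Mki67, a marker of cycling cells, was at 3.75, 3.25, 2.96, 2.65 and 3.05 at 24 h and at 4.95, 2.71 and 2.49 at 6 d. Replicate 1 at 6 d was thus the highest of the 8 arrays and the other 6 d arrays were near the bottom (estimate 0.25, interval -0.70 to 1.19).

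Chaperones of the endoplasmic reticulum and a stress effector went opposite ways in the estimates. Chac1, which degrades glutathione and is induced by ATF4, had 6.36, 5.54, 6.07, 5.16 and 6.12 at 24 h and 6.73, 7.64 and 7.08 at 6 d, with no overlap and a difference of 1.30 (0.51 to 2.09, limma adjusted p 0.677). The CO_Co arrays, from 5.63 to 6.85, reached into its 6 d range. Hyou1, an endoplasmic reticulum chaperone, had 5.41, 5.49, 5.09, 5.66 and 5.99 against 4.61, 4.75 and 5.26. Its difference was -0.65 (-1.07 to -0.24, limma adjusted p 0.759), and only 6 d replicate 3 reached the 24 h range. The chaperone calreticulin (Calr) followed with -0.37. Of the 18 genes of the unfolded protein response 5 estimates were above 0, the median was -0.18, and it stayed between -0.24 and -0.11 with any 1 array left out.

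Clock genes, whose levels follow the time of day, gave no member below an unadjusted p of 0.05 out of 16. Their median was 0.00, and -0.24 without 6 d replicate 3. Dbp, a clock output with a steep daily rhythm, read 4.43, 6.79, 5.60, 6.16 and 7.47 at 24 h and 5.09, 5.99 and 7.44 at 6 d. The 6 d values lay within the wide 24 h range, and the estimate was 0.08 with a wide interval (-1.32 to 1.49). Nr1d1, the clock repressor REV-ERB-alpha, was estimated at -0.01 (-0.73 to 0.72), and Bmal1, the core activator, at 0.19 (-1.08 to 1.45). Differences of 2-fold in these rhythmic genes therefore stayed within the Dbp and Bmal1 intervals.

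Among the lists on hormones and plasma proteins, the 23 genes under growth hormone and sex control had a median of -0.01, with 2 members at an unadjusted p under 0.05 in each direction. Socs2, a feedback inhibitor of growth hormone signalling, was estimated at -0.95 (-1.85 to -0.05), and Cyp17a1, a steroid hydroxylase, at 0.91 (0.07 to 1.74), with overlapping arrays in both. The 20 acute phase and complement genes had a median of -0.04 and the 22 genes of glucose and amino acid breakdown a median of 0.09. In the iron list, 5 of 12 genes had arrays that did not overlap between the durations, beside 4.85% of all genes. They went both ways, with 3 higher and 2 lower at 6 d, and the median of the list was 0.07. Hfe, a partner of the transferrin receptor, had 5.45, 5.39, 5.52, 5.36 and 5.61 at 24 h and 6.12, 5.94 and 5.77 at 6 d (difference 0.48, interval 0.05 to 0.90). Its CO_Co arrays at 24 h read 5.35, 5.83, 5.87 and 5.97 and so overlapped the 6 d range. Hamp, which encodes the iron hormone hepcidin, was estimated at 0.08 (-0.30 to 0.46).

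Over all genes, list members included, 30 hepatocyte genes (0.211%) had an estimate past 2-fold, 23 higher and 7 lower at 6 d, and the arrays did not overlap for 8 and 2 of them. The 4 named next were chosen after their values were seen. Bhmt, the betaine-homocysteine methyltransferase, read 9.04, 9.24, 9.63, 9.19 and 9.42 at 24 h and 10.32, 10.84 and 10.51 at 6 d. Its groups were well apart at 1.26 (0.46 to 2.05, limma adjusted p 0.759), but 3 of the 4 CO_Co arrays at 24 h were also high, from 10.35 to 11.15, and the remaining one, replicate 1, was below all 24 h arrays. Ddit4, an inhibitor of mTORC1 induced by stress and glucocorticoids, had 4.53, 3.43, 3.13, 3.30 and 3.68 against 5.04, 5.23 and 4.97. Etv3, a transcriptional repressor, reached at most 6.66 at 24 h and was at 7.45 and 7.35 on 6 d replicates 1 and 2, with replicate 3 between those ranges (estimate 1.26). Rgs16, a regulator of G protein signalling that responds to feeding state in liver, went the other way, with 8.07, 10.54, 9.68, 8.07 and 9.26 at 24 h and 7.97, 7.79 and 7.39 at 6 d. Its lowest 24 h arrays lay just above the highest 6 d array.

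Transcripts of other cells were also present on the HC arrays. All 12 Kupffer cell and macrophage markers had positive estimates, with a median of 0.53, and 13 of 16 endothelial markers did, with a median of 0.38. Without 24 h replicate 4 these medians were 0.26, with 9 of 12 above 0, and 0.24, and without 24 h replicate 3 they were 0.84 and 0.53. The macrophage marker mean was 5.33, 4.40, 6.01, 3.50 and 3.97 at 24 h and 5.21, 5.33 and 5.01 at 6 d, so the 6 d arrays sat inside the 24 h range and close together. For Mrc1, a macrophage and endothelial scavenger receptor, the values were 5.58, 4.56, 6.40, 3.20 and 4.22 against 5.95, 5.62 and 5.72, in the same order of arrays at 24 h. None of the 12 passed the test, and Lyz2 was the 1 member below an unadjusted p of 0.05. The part of cell makeup in the genes past 2-fold was not tested. Chosen after their values were seen, the endothelial genes Ptprb (1.06) and Clec14a (1.15) and the metalloprotease gene Adamts1 (1.10), had their lowest value of the comparison on 24 h replicate 4, where the macrophage and endothelial means were lowest.

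**Figure D3:**
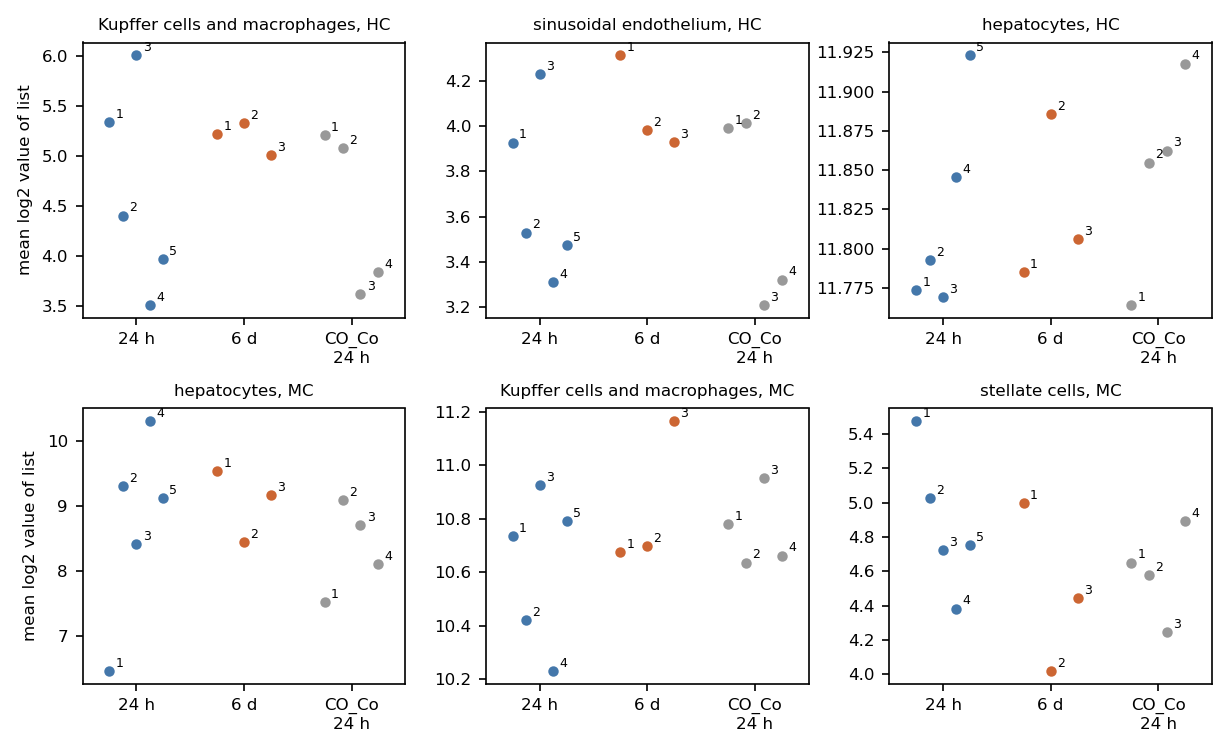
Mean log2 value of cell type marker lists on each corn oil array, by group (24 h, 6 d and CO_Co), with the replicate number beside each point and the list and fraction above each panel. The 6 d arrays lie within or near the range of the 24 h arrays in each panel, and MC replicates 1 and 4 at 24 h are the lowest and the highest for hepatocyte markers.

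In the mesenchymal fraction, too, no gene passed the test. With limma over the same 14217 genes, 0 (0.0%) were called, and 529 (3.72%) had an unadjusted p under 0.05, 228 (1.6%) with the higher mean at 6 d and 301 (2.12%) with the lower. Arrays did not overlap for 321 genes (2.26%), with the 6 d arrays higher for 115 (0.809%) and lower for 206 (1.45%). The 95% interval stayed within 2-fold for 12885 genes (90.6%), for 87.4% of those with a mean of at least 4 and for 87.3% of those with a mean of at least 6. The SD between the 24 h arrays was 0.26 for the median gene, against 0.16 at 6 d. In hepatocytes these SDs were 0.18 and 0.16. The intervals rest on the residual spread over all arrays of a fraction, other treatments included, and not on these SDs alone. Their median width to each side was 0.35 in MC and 0.32 in hepatocytes.

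The gene with the smallest p was Gpr34, a lysophosphatidylserine receptor of macrophages, with 2.28, 2.46, 3.06, 2.51 and 2.59 at 24 h and 3.80, 3.46 and 4.91 at 6 d. All 6 d arrays were higher, by 1.48 on average (interval 0.78 to 2.17), and the limma adjusted p was 0.9995. The CO_Co arrays at 24 h read 2.12, 2.82, 3.67 and 2.73, so replicate 3 of that group lay inside the 6 d range. Ahr, the aryl hydrocarbon receptor, had 6.01, 5.19, 5.07, 4.57 and 5.20 against 4.20, 4.22 and 3.26. The groups were apart by -1.31 (-2.01 to -0.62), while the CO_Co arrays at 24 h, from 4.92 to 5.09, were inside the 24 h range. The median of 8 Ah receptor targets was 0.05. The other 6 genes of smallest p were Dcaf10, Sncaip, Ift81, Rnft1, Cpsf4 and Tiprl, with estimates between -0.32 and 0.84.

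Interferon-responsive genes had the lowest median of the 30 pathway lists in this fraction. Of 22 genes, 20 had a negative estimate, the median was -0.49 beside -0.01 for all genes, and 1 was below an unadjusted p of 0.05. That gene was Irf7, the transcription factor that amplifies type I interferon, with 9.40, 8.42, 8.96, 8.34 and 9.01 at 24 h and 6.64, 8.42 and 7.22 at 6 d. Replicates 1 and 3 at 6 d lay below all 24 h arrays and replicate 2 among them (difference -1.40, interval -2.59 to -0.21, limma adjusted p 0.9995). Mx1, an antiviral GTPase, had 7.14, 6.56, 8.13, 7.02 and 7.04 against 4.89, 7.65 and 5.56, split in the same way. Isg15, a ubiquitin-like interferon product, had 7.74, 7.35, 7.74, 7.46 and 7.42 against 6.62, 8.27 and 6.38, so its replicate 2 at 6 d was the highest of all 8. The list median was -0.88 without 6 d replicate 2 and -0.21 without 6 d replicate 1. In hepatocytes the median of these 22 genes was -0.18. In MC their median for CO_Co minus the 24 h group was 0.30.

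Stress and immediate early genes were also mostly negative in the estimates, with wide spread. The median was -0.28 for 11 heat shock genes, with 1 above 0, and it ran from -0.72 without 6 d replicate 1 to -0.10 without 24 h replicate 2. It was -0.23 for 18 genes of the unfolded protein response, with 1 above 0. For the immediate early genes, which respond within minutes to cell handling as well as to signals, the median of 20 was -0.18, and it turned to 0.19 without MC replicate 3 at 6 d. Junb, a member of this list and a partner of FOS, read 8.68, 8.26, 7.20, 7.65 and 9.05 at 24 h and 8.10, 6.97 and 5.80 at 6 d. Atf3, a stress-induced repressor, ran from 6.36 to 10.23 at 24 h and read 10.15, 7.23 and 4.38 at 6 d, so replicate 3 was the lowest array and replicate 1 close to the highest. Ddit3, the stress factor CHOP, had 6.53, 7.39, 6.38, 5.67 and 6.78 against 5.67, 5.74 and 5.82, all at the low end of the 24 h range (difference -0.81, -1.49 to -0.12). The median of the unfolded protein response list kept its sign with any 1 array left out, between -0.38 and -0.17. In hepatocytes the immediate early genes went the other way, with a median of 0.23 and 17 of 20 above 0. That median lay between 0.08 and 0.39 with any 1 array left out, and none of the 20 was called. For CO_Co minus the 24 h group, the median of this list was 0.19 in HC and 0.36 in MC.

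Macrophage genes of the fraction had small medians, and none was called. The 12 macrophage markers had a median of 0.20, with 11 estimates above 0 and 9 intervals within 2-fold. Without 6 d replicate 3 this median was 0.05, with 7 above 0. The 21 genes of macrophage lipid uptake and remodelling had a median of 0.04, with 11 above 0 and 14 intervals within 2-fold. Abca1, which exports cholesterol and is induced by the oxysterol receptor LXR, had 6.81, 6.63, 7.33, 6.38 and 7.29 at 24 h and 7.39, 7.28 and 7.59 at 6 d, an estimate of 0.53 (0.08 to 0.98). Plin2, the droplet coat protein that rises with lipid loading, had 9.19, 9.72, 9.19, 9.82 and 8.89 against 9.42, 8.79 and 8.74 (-0.38, -0.81 to 0.04). Both overlapped between the durations. Tnf, the inflammatory cytokine, was estimated at -0.10 (-1.04 to 0.84).

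Stellate cell and collagen genes were lower at 6 d in 13 of 15 estimates, with a median of -0.20, none of them called. Col1a2, a chain of type I collagen, had 7.07, 6.16, 4.98, 4.38 and 5.43 at 24 h and 5.77, 3.38 and 4.35 at 6 d (-1.10, -2.19 to -0.01). Col3a1, type III collagen, followed the same order of arrays, at 10.75, 9.88, 8.63, 8.03 and 8.84 against 9.51, 7.08 and 8.17. In both genes 24 h replicate 1, the array with the least hepatocyte marker signal, was the highest. The replication licensing factor gene Mcm4 was the 1 DNA replication gene of 23 with arrays apart, at 5.76, 5.71, 5.76, 5.38 and 5.82 against 6.23, 6.34 and 6.11 (0.54, 0.15 to 0.93, limma adjusted p 0.9995). Its CO_Co arrays at 24 h read 5.69, 5.56, 6.12 and 6.25 and so overlapped the 6 d range.

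Hepatocyte genes on the MC arrays depended on which arrays were kept. The 15 hepatocyte markers had a median of 0.25 at 6 d, which was -0.32 without 24 h replicate 1 and 0.72 without 24 h replicate 4. The apolipoprotein list went the same way, from 0.19 to -0.29 and 0.47. None of the 15 hepatocyte markers had an interval within 2-fold here.

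**Figure D4:**
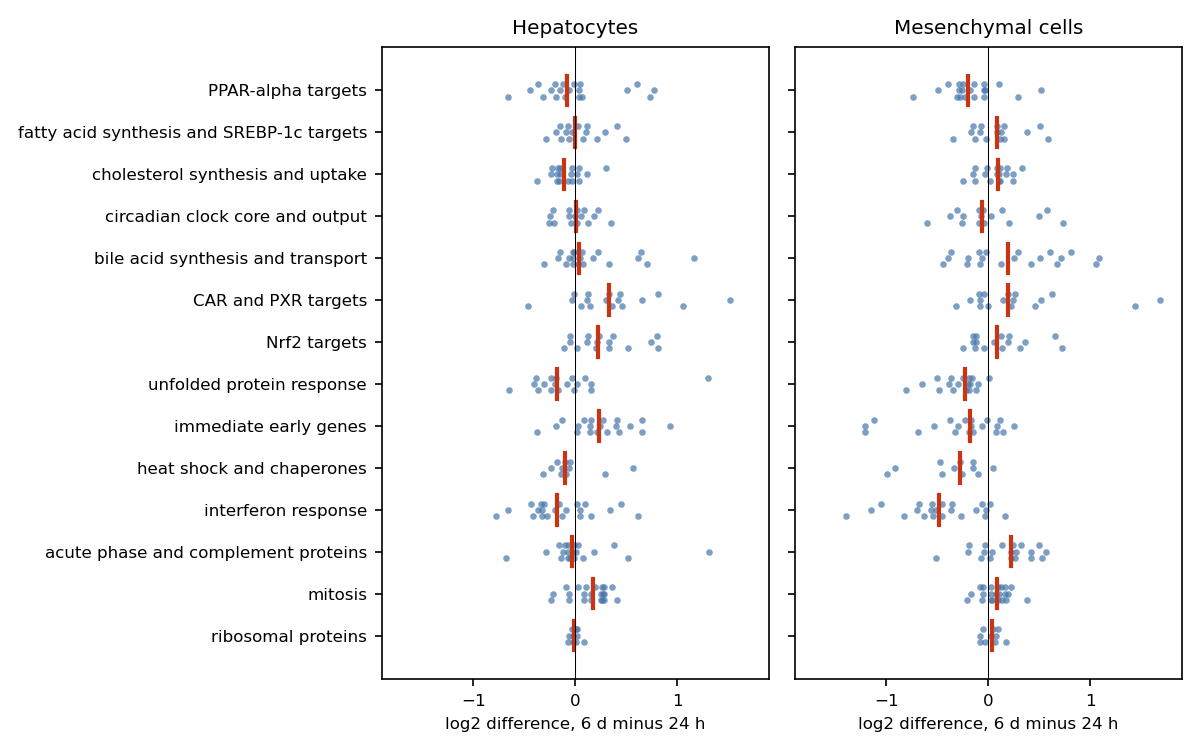
Log2 differences of 6 d minus 24 h of corn oil for the members of 14 pathway lists (points) with the median of each list (red line), in hepatocytes and in mesenchymal cells. The CAR and PXR list has a median of 0.33 in hepatocytes and the interferon list a median of -0.49 in mesenchymal cells, and no point passed the test.

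The HC and MC fits use different arrays, but same-numbered HC and MC arrays shared deviations from their group means, with correlations across genes of 0.07 to 0.29, and may come from the same animals. Overlaps between the fractions are therefore given as counts and not as independent support. An unadjusted p under 0.05 in both fractions was reached by 32 genes, 29 of them in the same direction. These 32 were 4.60% of the 696 in HC, beside 3.72% of all genes reaching that p in MC. They were 6.05% of the 529 in MC, beside 4.9% of all genes in HC. Arrays failed to overlap in both fractions for 15 genes, 13 in the same direction. The 15 were 2.17% of the 690 in HC, beside 2.26% of all genes in MC. They were 4.67% of the 321 in MC, beside 4.85% of all genes in HC. Among the 29 were Ift81, Odf2l and Mdm1. Ift81, a subunit of intraflagellar transport, had estimates of 0.73 in HC and 0.84 in MC, Odf2l 0.74 and 0.41, and Mdm1 0.48 and 0.44. The arrays of Odf2l and Mdm1 were apart in both fractions and those of Ift81 only in HC. The splicing genes Sf3a1 (0.38 and 0.43) and Srsf10 (0.38 and 0.59) were also among the 29. All 5 were named after their values were seen, and no enrichment was computed. Gpx2, a glutathione peroxidase of the gut epithelium, had the largest size in both, -1.60 and -1.05. In HC it read 2.15, 4.33, 4.38, 3.83 and 4.62 at 24 h and 2.83, 2.01 and 1.95 at 6 d, so 24 h replicate 1 was as low as the 6 d arrays.

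The difference between the fractions was tested itself. With limma over all 60 arrays, 0 genes (0.0%) were called for HC minus MC of the 6 d effect, and 413 (2.9%) had an unadjusted p under 0.05. This fit treated HC and MC arrays as unrelated and took a common spread per gene for both fractions. Its p-values thus ignore any shared animal. For Gpr34 the difference of effects was -1.44, for Ptafr -0.96 and for Chac1 1.49, with unadjusted limma p-values of 0.000268, 0.000187 and 0.00171. None of the 3 passed after adjustment. On the HC arrays of the comparison Gpr34 read only 0.99 to 1.30, at the bottom of the scale. Its difference of effects therefore rests on the MC arrays.

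The largest estimates in both fractions came from genes that differed widely between arrays of the same group. Ugt2b, annotated as a UDP-glucuronosyltransferase of the steroid-conjugating family, had the lowest estimate in each, -2.43 in HC and -2.08 in MC. In HC it read 11.76, 11.77, 11.80, 11.38 and 11.20 at 24 h and 4.54, 11.45 and 11.47 at 6 d. In MC it read 5.76, 8.80, 8.70, 9.05 and 6.63, then 2.22, 6.91 and 8.01. Replicate 1 at 6 d was the lowest array in both fractions, and in HC a further probe set of the gene was also lowest there, at 1.74 against at least 8.06 elsewhere. RGD1309362, named only by its database symbol, had the highest estimates, 1.71 and 2.22. It was at 2.84, 2.62, 2.59, 5.15 and 2.48 at 24 h and 7.98, 2.47 and 4.08 at 6 d in HC, and at 2.69, 2.71, 2.61, 8.59 and 2.29, then 7.72, 2.32 and 7.95 in MC. The same 3 numbered replicates, 24 h replicate 4 and 6 d replicates 1 and 3, were thus high in both fractions.

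This pattern was followed across all genes, in a scan chosen after these values were seen. An array was counted for a gene where it lay more than 2 log2 units from the median of the other 7 corn oil arrays of its fraction. HC and MC arrays of the same duration and replicate number gave 23 such events that both shared in the same direction, over 8 pairs, and 0 in opposite directions. Arrays of different numbers gave 37 over 56 pairs. That count also holds events of RT1-CE10, a gene set apart on every array of the comparison in both fractions. The labels do not say whether HC and MC arrays of a number come from 1 animal. The 23 events fell on 14 genes, and 8 of them were RT1-CE10, which split the arrays of both durations into high and low.

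Of these, 6 were genes of pancreatic digestive enzymes, and all stood out on 24 h replicate 4. Amy2a3, pancreatic amylase, read 1.97, 1.56, 1.52, 7.64 and 1.73 at 24 h in HC and 1.40, 2.05 and 1.79 at 6 d. In MC it read 1.13, 1.27, 1.40, 6.90 and 1.24, then 1.27, 0.96 and 1.07. One replicate number was high and all other arrays were at the bottom of the scale. Prss1, trypsinogen, was at 5.42 in HC and 4.83 in MC on that replicate and at 2.55 or less on all others. Ctrb1, Cela2a, Prss3b and Pnlip, which encode chymotrypsinogen, an elastase, a further trypsinogen and pancreatic lipase, were at 4.17 or more on both arrays of that number. Their estimates for 6 d minus 24 h, such as -1.14 for Amy2a3 in HC, therefore rest on 1 array of the 24 h group. Ins1, another pancreatic gene, read near the array median in HC and was not set apart on that array.

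Genes of the major histocompatibility complex, RT1 in the rat, made another set. RT1-CE10, a class I gene, read 8.94, 5.49, 8.16, 5.79 and 5.33 at 24 h in HC and 7.87, 7.80 and 5.22 at 6 d. The MC arrays of the same numbers read 10.32, 5.73, 8.83, 5.81 and 5.78, then 7.84, 8.89 and 5.22. High and low values thus fell on the same replicate numbers in both fractions, in both durations, and the means of the durations differed by 0.22 in HC and 0.02 in MC. RT1-T24-4 was at 3.08 in HC and 2.55 in MC on 24 h replicate 1 and at 6.02 or more on the other arrays of the comparison. On the CO_Co arrays of that number it was at 3.02 in HC, the array that resembled HC 24 h replicate 1, and at 9.18 in MC. Ubd, a ubiquitin-like gene that lies in the same complex, was at 4.31 and 3.53 on 24 h replicate 1 and at 3.89 and 2.88 on 24 h replicate 3, with 6.33 or more on the others of the comparison. Its estimates, 1.69 and 1.17, follow from those 2 replicate numbers in the 24 h group.

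The remaining genes of the scan were Rgs16 and Noct, both with daily or feeding-related rhythms in liver, and Cyp3a18. Noct, a deadenylase-like clock output, was highest on 24 h replicate 5 in both fractions, at 8.21 and 6.58. Rgs16 was highest on 24 h replicate 2, at 10.54 and 8.27. Cyp3a18 was highest on 6 d replicate 1 in both, at 10.54 in HC and 6.77 in MC.

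**Figure D5:**
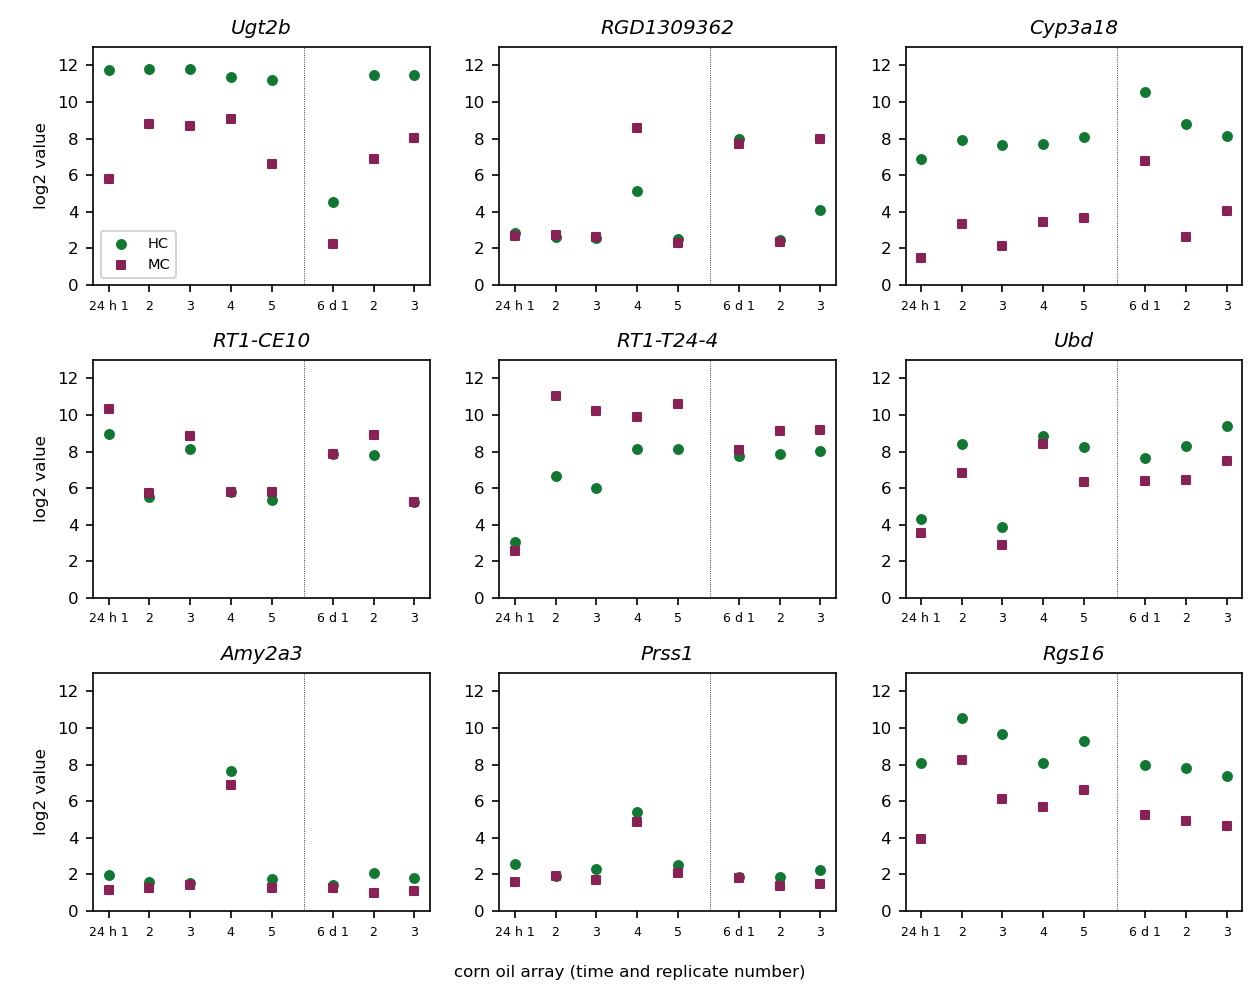
Log2 values of 9 genes on the corn oil arrays by duration and replicate number, hepatocytes as circles and mesenchymal cells as squares, with a dotted line between the 24 h and the 6 d arrays. Arrays of the same number stand out together, such as 6 d replicate 1 for Ugt2b, 24 h replicate 4 for Amy2a3 and Prss1, and 24 h replicate 1 for RT1-T24-4.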

How the data were processed

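The authors deposited log2 expression values of 60 Affymetrix arrays, made with RMA per the submitters' processing notes (version not given in the sources used here). RMA corrects background, equalises the arrays and summarises probes, so a shift common to all genes of an array is removed. Of 31042 probe sets, 20826 had 1 gene symbol in the platform annotation, 436 had several and 9780 had none. Symbols were updated through the reference gene table by gene identifier for 20758. Each gene was read from 1 probe set, that of highest mean across the 60 arrays, which left 14217 genes. No filter on low values was applied. Precision is limited by the number of arrays.

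Groups came from the sample titles. R 4.3.3 and limma 3.58.1 (lmFit, eBayes) fitted 1 mean per group over the 30 arrays of a fraction. The difference between the fractions was fitted over all 60. The Benjamini-Hochberg adjustment ran over all genes, and called means an adjusted p under 0.05. Differences are 6 d minus 24 h in log2 units with 95% moderated-t intervals. The scripts were tested on simulated data.

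The comparison and the 40 gene lists (30 pathways, 10 cell types) were chosen with earlier results of these data known. With no gene called, the named genes were, per fraction, the 8 of smallest p, the smallest-p member of each list and a fixed set of anchor genes. Others are marked as chosen after their values were seen, or are list members given as examples. Lists are described by counts and medians, with no test. Alternatives covered arrays left out, the replicate block, array weights, other normalisation, probe set rules, filters and covariates.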

Additional observations from a re-analysis of the deposited data

Results flagged for a closer look

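In 155 groups of 5 arrays examined for the named genes and marker means, 9 had 1 array far from the others by Dixon's criterion, where chance marks about 1 in 20 groups. The 155 groups were all 24 h groups, since the 6 d groups hold 3 arrays and were not examined. In hepatocytes Atp8b4 had its lowest value, 4.10, on replicate 3, Ptafr its highest, 5.33, on replicate 1, and Perp its highest, 8.16, on replicate 2. The platelet marker mean was lowest, 3.23, on HC replicate 4. In mesenchymal cells the lipid genes Lpl and Cd36 were both highest on replicate 3, at 7.13 and 7.96. Lpl, lipoprotein lipase, read 2.40 to 2.85 on the other 24 h arrays. Pck1, an enzyme of gluconeogenesis, was lowest on MC replicate 1, at 7.01, the array with the lowest hepatocyte marker mean. Mcm4 was lowest, 5.38, and the cholangiocyte marker mean highest, 2.55, on MC replicate 4, the array with the highest hepatocyte marker mean. The part of cell makeup in these values was not tested.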

How the results depend on the processing

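The 6 d against 24 h comparison gave 0 called genes in hepatocytes with limma. The count was 10 with array weights, 1 (Ins1) with the mean of a gene's probe sets, 2 with CO_Co as the 24 h group and 3 with the mean of both 24 h groups. Leaving out 1 array at a time gave 0 to 3 calls, the 3 without 24 h replicate 3. The replicate block gave 2, and the other alternatives run gave 0. Over the fixed gene lists in HC the count was 1 with CO_Co as the 24 h group and 0 to 0 with arrays left out. In MC every alternative that was run gave 0 calls, over all genes and over the lists. The HC minus MC difference had 1 call with CO_Co as the 24 h group and 0 with any array left out.

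The 10 genes of CO_Co against the 24 h group in HC became 0 with only those 9 arrays, 3 with the replicate block, 24 with array weights and 1 to 22 with an array left out. In MC that count of 0 was 1 with hepatocyte marker signal as covariate and 0 to 1 with an array left out.

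The groups share replicate numbers, but the deviations of same-numbered 6 d and 24 h arrays correlated at 0.14, 0.04 and -0.06 in HC and -0.42, -0.19 and 0.11 in MC, so the numbers were not treated as pairs. The replicate block gave 2 calls in HC (Ighvl1 and Cxcl14) and 0 in MC and for HC minus MC. Beyond the arrays left out, no named gene that passed the test reversed, since none passed. Signs of the estimates differed from those reported for 16 of 68 named genes in HC and 26 of 67 in MC under some alternative, and for none of the 8 genes of smallest p in either fraction. With 3 arrays at 6 d, the median 95% interval was 0.32 wide to each side in HC and 0.35 in MC, which limits what could be detected.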
